A study of Mus musculus with 24 samples.

Results

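The genes described are 8 G protein-coupled receptors, Gpr101, Qrfpr, Calcr, Adgrg2, Ghsr, Gpr83, Ntsr1 and Npy6r, out of 18193 genes with their own probe set on the array. They were selected on their measured levels, which differ between subregions of the mouse suprachiasmatic nucleus (SCN), so their levels by region are given as a description, without a test, and the light pulse was tested. All 8 symbols were found, with 11 probe sets, and where a gene has several, the 1 with the highest mean leads. Levels are on the authors' log2 scale, where a difference of 1 is a doubling.

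The SCN is a paired hypothalamic nucleus that holds the central circadian clock. The arrays came from C57BL/6 mice, obtained at 8 weeks of age, that lived in constant dim red light for at least 7 days. They then received a phase-advancing light pulse of 30 min, or a sham treatment of the same length, and were killed 3.5 h later. Laser microdissection gave the ventral (core), central (middle) and dorsal (shell) SCN of light and of sham mice, which makes 6 groups of 4 arrays, and every group has 2 arrays in amplification and labelling batch A and 2 in batch B. The labels name no transgene and do not say which arrays share an animal, so p-values measure the spread between arrays, part of which may be technical. The labels do not give the borders along which the regions were cut.

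G protein-coupled receptors cross the membrane in a bundle of helices and pass the binding of a ligand outside the cell to G proteins inside it. SCN neurons signal to each other with peptides. The core makes gastrin-releasing peptide (Grp) and vasoactive intestinal peptide (Vip), the shell makes vasopressin (Avp), so which receptor a subregion makes bears on which of its neighbours' signals it can read. Several of the 8 receptors are best known outside the clock, in feeding, growth, pain or bone.

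Values of the 2 batches are not on 1 scale, since array medians ran from 3.52 to 3.62 in batch A but from 4.81 to 5.07 in batch B. Every comparison was therefore made within a batch or with the batch as a term. Array 4 of the dorsal light group stood apart: the 3′ control probe set of Gapdh exceeded the 5′ one by 5.41 log2 units there, against 0.887 to 1.08 on the other 11 arrays of its batch, and its median correlation with them was 0.913, against 0.977 to 0.987 for those 11. Central light array 2 had the lowest median correlation of batch A, 0.955. The labels of the regions were checked against peptide genes. Vip was higher in the ventral than in the dorsal SCN by 3.44 ± 0.298 (SE) and Grp by 1.58 ± 0.141, while Avp had a ventral minus dorsal difference of -1.43 ± 0.249. The lists of 6 core and 6 shell genes were mixed, with 4 core genes higher and Calb1 (-0.39) and Nts (-0.70) lower in the ventral than in the dorsal SCN. Of the shell genes, 4 were lower in the ventral SCN, C1ql3 (0.01) was not, and Cck, which both lists hold, was higher there by 1.04. Because tissue pieces were measured, fewer cells of a type and less RNA per cell cannot be told apart.

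**Figure D1:**
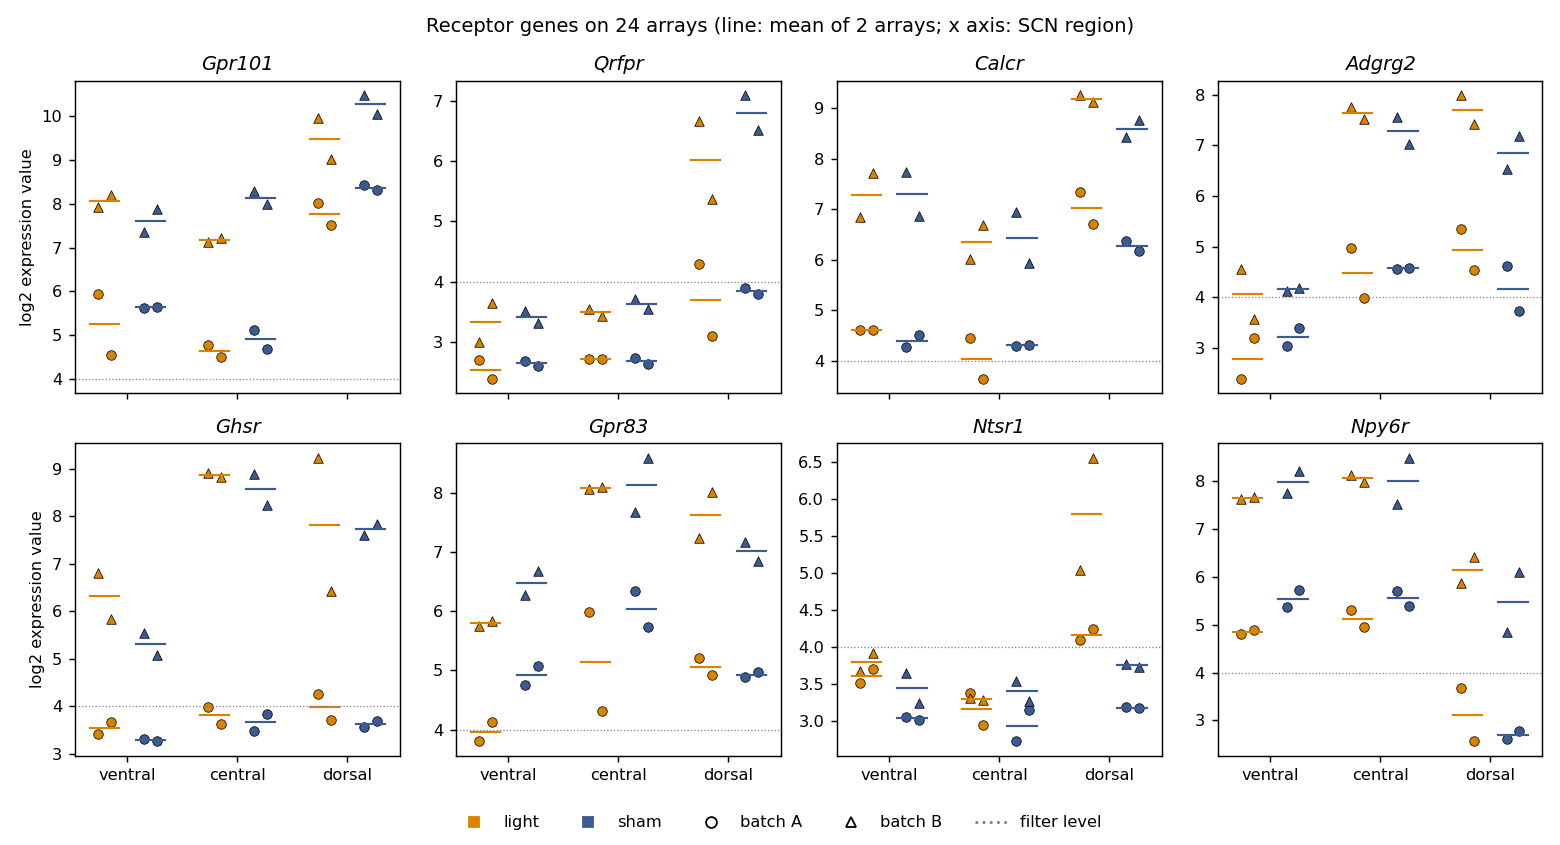
Log2 expression value of the lead probe set of each receptor gene (y axis, a scale of its own in each panel) on the 24 arrays, by SCN region (x axis), with light arrays left of sham arrays. Circles are batch A, triangles batch B, each line is the mean of 2 arrays and the dotted line is the filter level of 4. Gpr101, Qrfpr and Calcr are highest in the dorsal SCN, Npy6r is lowest there, Adgrg2 is lowest in the ventral SCN, and Ntsr1 exceeds 4 on the 4 dorsal light arrays only.

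Gpr101, Qrfpr and Calcr were highest in the dorsal SCN. Gpr101 is a receptor without a settled ligand that couples to Gs and is duplicated in human X-linked acrogigantism. It averaged 5.44 ± 0.607 in the ventral, 4.77 ± 0.264 in the central and 8.06 ± 0.407 in the dorsal SCN of batch A (SD, n = 4 arrays each). In batch B it averaged 7.84 ± 0.354 in the ventral, 7.65 ± 0.567 in the central and 9.88 ± 0.611 in the dorsal SCN (SD, n = 4 arrays each). Its 4 dorsal arrays lay above all 8 others in either batch. The ventral minus dorsal difference was -2.33 ± 0.218 (SE), 5.03-fold lower in the ventral SCN, and the central minus dorsal difference -2.76 ± 0.218, 6.76-fold lower in the central SCN. Ventral and central arrays overlapped, with a ventral minus central difference of 0.43 ± 0.218.

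Calcr encodes the calcitonin receptor, which with a RAMP subunit also binds amylin, and in mice Calcr neurons of the SCN shell have been tied to the daily rhythm of body temperature. It averaged 4.50 ± 0.161 in the ventral, 4.18 ± 0.365 in the central and 6.65 ± 0.509 in the dorsal SCN in batch A (SD, n = 4 arrays each). The batch B means were 7.29 ± 0.503 in the ventral, 6.40 ± 0.501 in the central and 8.89 ± 0.372 in the dorsal SCN. Again no dorsal array overlapped with an array of another region of its batch. Ventral minus dorsal came to -1.87 ± 0.187 (3.66-fold lower in the ventral SCN) and central minus dorsal to -2.48 ± 0.187 (5.59-fold lower in the central SCN). The ventral and central values of batch A lay near the filter level of 4, with a central array at 3.64, so these folds are imprecise. The ventral mean exceeded the central one by 0.61 ± 0.187, with overlapping arrays.

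Qrfpr, also known as Gpr103, is the receptor of the RFamide peptide QRFP, which promotes feeding. Its batch A means were 2.59 ± 0.144 in the ventral, 2.70 ± 0.0475 in the central and 3.77 ± 0.502 in the dorsal SCN, and its batch B means 3.37 ± 0.282 in the ventral, 3.56 ± 0.112 in the central and 6.42 ± 0.732 in the dorsal SCN (SD, n = 4 arrays each). All ventral and central arrays lay below 4, the level a gene had to exceed on at least 4 arrays to be tested, so that Qrfpr passed this filter only through 5 dorsal arrays. On the dorsal arrays it read 4.30 and 3.09 after light and 3.90 and 3.80 after sham in batch A. In batch B the dorsal values were 6.67 and 5.38 after light and 7.10 and 6.51 after sham. Every dorsal array exceeded every other array of its batch, but the ventral minus dorsal difference was -1.18 in batch A and -3.05 in batch B. Folds of values this near the background are imprecise.

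Since these 3 genes are high in the same subregion, their promoters are shown as RefSeq gives them on GRCm38.p6, from 250 bases before to 50 after a transcript start, with the promoter of Ntsr1, whose values parted after light. Capitals mark the letters TGACG on either strand, the core of the cAMP response element (CRE), through which CREB drives genes after a light pulse.
Gpr101, chrX:57503708-57504007, minus strand: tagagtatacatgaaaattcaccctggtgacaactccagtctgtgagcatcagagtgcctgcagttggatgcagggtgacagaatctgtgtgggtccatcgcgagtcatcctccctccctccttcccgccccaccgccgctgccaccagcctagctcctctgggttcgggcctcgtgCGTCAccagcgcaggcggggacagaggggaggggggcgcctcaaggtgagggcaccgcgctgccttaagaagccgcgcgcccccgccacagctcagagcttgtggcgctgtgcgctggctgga
Calcr, chr6:3763574-3763873, minus strand: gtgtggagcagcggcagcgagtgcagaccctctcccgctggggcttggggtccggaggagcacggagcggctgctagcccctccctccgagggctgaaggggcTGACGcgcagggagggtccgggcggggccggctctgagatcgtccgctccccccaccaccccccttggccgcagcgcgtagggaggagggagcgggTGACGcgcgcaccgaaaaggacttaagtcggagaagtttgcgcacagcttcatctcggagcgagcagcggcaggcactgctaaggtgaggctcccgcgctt
Qrfpr, chr3:36222226-36222525, minus strand: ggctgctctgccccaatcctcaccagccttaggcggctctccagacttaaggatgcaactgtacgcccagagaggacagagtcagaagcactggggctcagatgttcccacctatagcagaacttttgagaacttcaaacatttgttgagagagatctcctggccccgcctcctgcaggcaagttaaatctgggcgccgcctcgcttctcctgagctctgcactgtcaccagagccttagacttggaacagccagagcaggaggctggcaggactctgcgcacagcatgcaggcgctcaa
Ntsr1, chr2:180499726-180500025, plus strand: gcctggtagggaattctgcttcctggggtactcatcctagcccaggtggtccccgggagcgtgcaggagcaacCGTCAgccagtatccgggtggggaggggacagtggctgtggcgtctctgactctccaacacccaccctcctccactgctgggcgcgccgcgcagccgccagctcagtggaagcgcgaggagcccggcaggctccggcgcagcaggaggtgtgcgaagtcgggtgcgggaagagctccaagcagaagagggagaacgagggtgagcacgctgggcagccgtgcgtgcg

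RefSeq windows were found for 7 of the 8 genes, 8 windows in all, since Calcr has another one upstream. The core TGACG occurred in 5 of the 8 windows: once in Gpr101, 2 times in the window of Calcr shown and once in its other window, and once each in Gpr83 and Ntsr1. Of 32851 promoter windows of the same length, 20.8% hold it. The GC content of the windows shown was 64.3% for Gpr101, 70.0% for Calcr, 56.7% for Qrfpr and 68.0% for Ntsr1, against a median of 52.7% over all windows. The full CRE (TGACGTCA, 1.79% of all windows), the E-box of the clock factors (CACGTG, 7.15%) and the AP-1 element (TGANTCA, 7.81%) matched none of the 8. Both strands were searched, and the full CRE contains the core.

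Npy6r ran the other way and was lowest in the dorsal SCN. It encodes the neuropeptide Y receptor Y6, which is active in mice and a pseudogene in humans. Its means were 5.19 ± 0.43 in the ventral, 5.33 ± 0.312 in the central and 2.90 ± 0.526 in the dorsal SCN in batch A, and 7.82 ± 0.269 in the ventral, 8.03 ± 0.398 in the central and 5.81 ± 0.678 in the dorsal SCN in batch B (SD, n = 4 arrays each). The dorsal arrays lay below all others of their batch, and all 4 of batch A were below 4. Ventral minus dorsal was 2.15 ± 0.187 and central minus dorsal 2.33 ± 0.187, and no fold is given against dorsal levels this low. The ventral and central levels did not differ beyond their spread (-0.18 ± 0.187). The other probe set of Npy6r lay below 4 on all arrays of batch A. In the fit of both batches it showed smaller differences in the same direction, 0.42 ± 0.186 for ventral minus dorsal and 0.70 ± 0.186 for central minus dorsal. Its ventral minus dorsal difference was -0.015 in batch A and 0.846 in batch B, so that direction rests on batch B.

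Adgrg2, Ghsr and Gpr83 were lowest in the ventral SCN. Adgrg2, an adhesion receptor also called Gpr64 and known for its role in the male reproductive tract, averaged 3.00 ± 0.438 in the ventral, 4.53 ± 0.409 in the central and 4.55 ± 0.665 in the dorsal SCN in batch A (SD, n = 4 arrays each). In batch B the means were 4.11 ± 0.404 in the ventral, 7.47 ± 0.317 in the central and 7.28 ± 0.607 in the dorsal SCN. No ventral array reached a central or dorsal one of its batch. Ventral minus dorsal was -2.36 ± 0.289 (-1.55 in batch A and -3.17 in batch B) and ventral minus central -2.45 ± 0.289 (-1.53 in batch A and -3.36 in batch B), while central and dorsal levels were alike within their spread (0.08 ± 0.289). Of the ventral arrays 3 exceeded 4, all in batch B, so the ventral level is near the background and no fold is given. A weaker second probe set of Adgrg2, above 4 on 4 arrays, gave ventral minus central as -0.56 ± 0.158 and ventral minus dorsal as -0.34 ± 0.158.

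Ghsr, the receptor of the stomach hormone ghrelin, was read above 4 on all 12 arrays of batch B but on 1 of batch A. Its batch B means were 5.82 ± 0.724 in the ventral, 8.72 ± 0.32 in the central and 7.78 ± 1.15 in the dorsal SCN (SD, n = 4 arrays each). Central arrays all exceeded ventral ones there, while the dorsal arrays spread widely, at 9.23 and 6.42 after light and 7.61 and 7.85 after sham, and overlapped with both other regions. In batch A the means were 3.42 ± 0.177 in the ventral, 3.74 ± 0.219 in the central and 3.81 ± 0.312 in the dorsal SCN, and the regions overlapped. The low ventral level thus rests on batch B, where ventral minus central was -2.90, against -0.32 in batch A, and -1.61 ± 0.38 (SE) in the fit of both batches. Central minus dorsal was -0.07 in batch A, 0.94 in batch B and 0.44 ± 0.38 in the fit. It was 0.195 without dorsal light array 4, the array that stood apart and read 6.42, so central and dorsal levels are not ordered here.

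Gpr83, a receptor for which the peptide PEN, cut from proSAAS, has been reported as a ligand, was highest in the central SCN. It averaged 4.44 ± 0.578 in the ventral, 5.59 ± 0.893 in the central and 5.00 ± 0.142 in the dorsal SCN in batch A and 6.14 ± 0.427 in the ventral, 8.10 ± 0.378 in the central and 7.32 ± 0.492 in the dorsal SCN in batch B (SD, n = 4 arrays each). Ventral minus central was -1.56 ± 0.221 (2.94-fold lower in the ventral SCN), with separate arrays in batch B and overlapping ones in batch A, where central light array 2 read 4.31. Without that array the difference was -1.77. A ventral array of batch A read 3.80, below the filter level of 4, so the fold is imprecise. Ventral minus dorsal was -0.87 ± 0.221 and central minus dorsal 0.69 ± 0.221, and arrays overlapped in at least 1 batch. The second probe set of Gpr83 gave -0.85 ± 0.166 for ventral minus central, -0.24 ± 0.166 for ventral minus dorsal and 0.61 ± 0.166 for central minus dorsal, the same order of the regions over all arrays. The ventral minus dorsal difference of the lead probe set was -1.46 among light arrays and -0.27 among sham arrays, and that of the second probe set -0.59 among light arrays and 0.10 among sham arrays, so that the order of ventral and dorsal SCN rests on the light arrays. Ventral minus central was alike in both, -1.73 among light and -1.39 among sham arrays of the lead probe set.

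Ntsr1, the high-affinity receptor of neurotensin, exceeded 4 on 4 arrays only, all of them dorsal light arrays, and it passed the filter through them alone. Its sham arrays differed little between regions, with a mean ventral minus dorsal difference of -0.22 among sham arrays and -1.28 among light arrays. The central minus dorsal difference was likewise -0.29 among sham arrays and -1.75 among light arrays. Its difference between regions therefore lies in the light arrays.

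**Figure D2:**
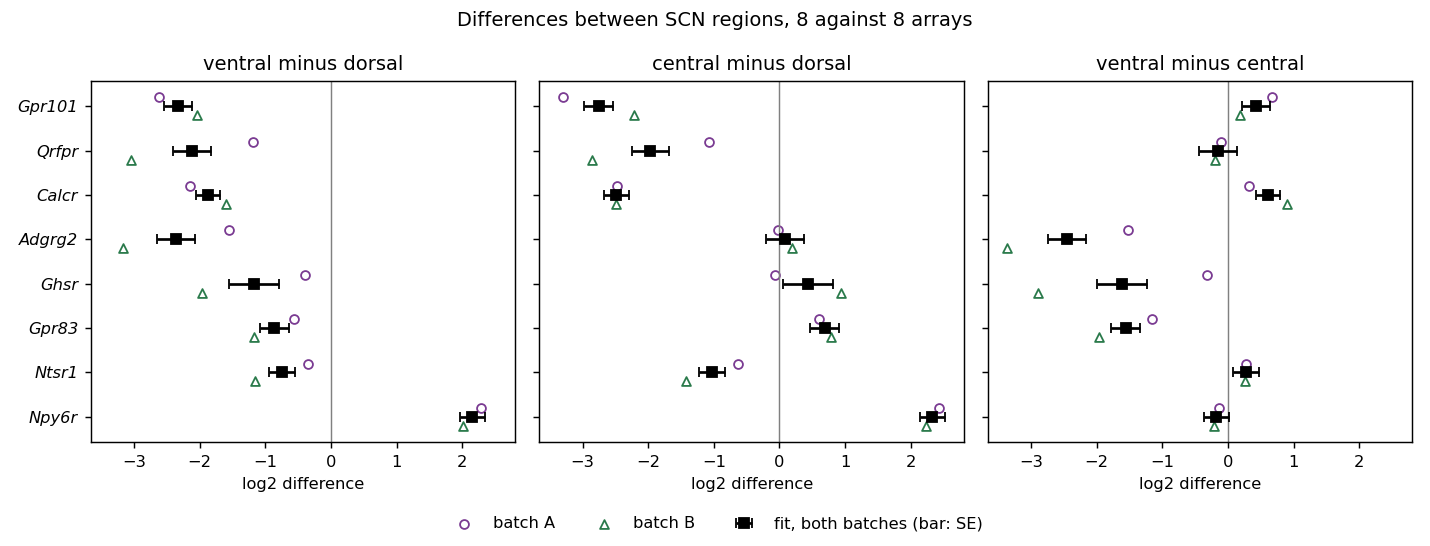
Log2 differences between SCN regions (x axis) for the 8 receptor genes (rows), as ventral minus dorsal, central minus dorsal and ventral minus central. Squares are the fit on both batches with its standard error, circles batch A alone and triangles batch B alone. Gpr101, Qrfpr and Calcr lie left of 0 in both comparisons with the dorsal SCN and Npy6r right of it, with ventral minus dorsal differences of -2.33, -2.12, -1.87 and 2.15.

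Across the 8 genes, 4 had every ventral array below every dorsal array in both batches (Gpr101, Qrfpr, Calcr and Adgrg2), as had 0.897% of the 13494 tested genes, and Npy6r had the opposite order, as had 1.24%. Central arrays were all below dorsal ones for 3 of the 8 (1.58% of tested genes) and all above them for Npy6r (0.637%). Ventral arrays were all below central ones for Adgrg2 (0.371%) and all above them for 0 of the 8 (2.26%). The genes were chosen for such differences, so these counts describe the choice.

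Markers of neighbouring hypothalamic neurons were, as a mean over the list, highest on the dorsal arrays. Of 16 such genes listed, 14 had a probe set with 1 symbol and 10 were tested. Their mean level lay between 4.46 and 4.64 on ventral, 4.18 and 4.39 on central and 4.99 and 5.69 on dorsal arrays of batch A, and between 5.08 and 5.50, 4.34 and 4.84, and 5.61 and 6.56 on those of batch B. The medians of their ventral minus dorsal and central minus dorsal differences were -0.40 and -0.85, against 0.01 and -0.05 over all tested genes. Sst, the somatostatin precursor, had a central minus dorsal difference of -4.71 ± 0.423 and Oxt, the oxytocin precursor, -2.29 ± 0.457. Sst also had the lowest ventral minus dorsal difference, -5.26 ± 0.423, so it weighs most in the dorsal excess of the mean. In each comparison 1 of the 10 lay above 0, Pmch at 0.57 ± 0.197 for ventral minus dorsal and Crh at 0.06 ± 0.281 for central minus dorsal. The ventral minus dorsal differences of Trh (-0.06), Ghrh (-0.035), Otp (-0.29) and Crh (-0.25) were within their SE. Of the listed genes without a test, Sim1 reached 5.58 at most and Nr5a1 3.75. Their part in the high dorsal levels of Gpr101, Calcr and Qrfpr was not tested. Oligodendrocyte genes were lowest in the central SCN, with a median ventral minus central difference of 2.54 over 11 genes, and all 11 were higher in the ventral than in the dorsal SCN. Whether they bear on the low ventral values of Adgrg2, Ghsr and Gpr83 was not tested.

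Genes whose pattern over the 24 arrays was most like that of each receptor were found by Pearson's r, after each gene's batch mean was subtracted. The arrays share region, treatment and quality, so the values only describe likeness. Nearest to Gpr101 were Syt1 (0.935), Krt222 (0.931) and Pcdh11x (0.91). For Calcr they were Asb4 (0.911), Ghr (0.91) and Fstl5 (0.906), and for Qrfpr Kcnj5 (0.9), Lancl3 (0.892) and Nt5e (0.882). Ghr encodes the growth hormone receptor and Kcnj5 a potassium channel that G proteins open. Npy6r was most like Lrrtm3 (0.936), Thsd7b (0.933) and Grp (0.93). Lrrtm3 is a synaptic adhesion protein, and Grp is the core peptide named above. For Gpr83 the nearest genes were Chl1 (0.884), Pcdh10 (0.873) and Nrp2 (0.868), of which Chl1 and Pcdh10 encode cell adhesion proteins and Nrp2 a semaphorin receptor. For Ghsr they were Grpr (0.835), Adgrg2 (0.818) and Syndig1 (0.775), so that another of the 8 and the receptor of gastrin-releasing peptide stood closest. For Adgrg2 the list was 9430021M05Rik (0.894), Tac2 (0.866) and Mctp2 (0.849), and Tac2 is the neurokinin B precursor. Ntsr1 was most like Odc1 (0.883), Hopx (0.874) and Cep290 (0.854). It exceeded the filter level only on the 4 dorsal light arrays, array 4 that stood apart among them, so its likeness rests on few arrays. The same limit holds for Qrfpr, above that level on 5 dorsal arrays only. Ghsr exceeded it on 1 array of batch A and on all 12 of batch B, so its likeness rests mostly on batch B. Odc1 encodes ornithine decarboxylase, the first enzyme of polyamine synthesis.

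The light pulse was then compared with sham in each region, with 4 light against 4 sham arrays. The largest difference among the 8 genes was that of Ntsr1 in the dorsal SCN. In batch A it read 4.09 and 4.24 on dorsal light arrays, against 3.19 and 3.18 on dorsal sham arrays. In batch B the values were 5.04 and 6.56 on light arrays, against 3.77 and 3.73 on sham arrays. All light arrays lay above the sham arrays of their batch. The light minus sham difference was 1.52 on the log2 scale, and 1.06 without dorsal light array 4, the array that stood apart and read 6.56. Since the region pattern of Ntsr1 lies in these same arrays, its choice cannot be separated from this difference, which is given without a p. All sham values were below 4, not above the filter level, so the difference has no exact size and no fold is given.

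In the ventral SCN Ntsr1 read 3.52 and 3.71 on light arrays, against 3.05 and 3.02 on sham arrays in batch A, and 3.67 and 3.92 on light arrays, against 3.65 and 3.25 on sham arrays in batch B. All 8 values, like the central ones, were below the filter level of 4, so no test is given. Nts, the precursor of its ligand neurotensin, had light minus sham differences of 0.09 ± 0.374, 0.28 ± 0.374 and 0.20 ± 0.374 in the ventral, central and dorsal SCN, and none passed (adjusted p = 1, 0.953 and 0.838). Between regions, Nts had a ventral minus dorsal difference of -0.70 ± 0.265 and a central minus dorsal difference of -1.07 ± 0.265.

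None of the other 7 genes passed the limma test for light in any region (adjusted p of at least 0.449), where 0.719% of 13494 genes passed in the ventral, 0.385% in the central and 0.178% in the dorsal SCN. Qrfpr lay below the filter level on all ventral and central arrays, so its tests there cannot decide and are not read as results. At an unadjusted p under 0.05, 1 of the 7 stood out in the ventral SCN (Gpr83), 0 in the central and 3 in the dorsal SCN (Gpr101, Calcr and Npy6r), where 6.56, 8.06 and 10.1% of all tested genes had such a p in the ventral, central and dorsal SCN. The arrays that gave a gene its place among the 8 also enter its light differences, so the comparison is not wholly independent of the choice.

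The lowest light minus sham difference was that of Gpr83 in the ventral SCN, which read 3.80 and 4.13 on light arrays, against 4.76 and 5.07 on sham arrays of batch A. In batch B it read 5.76 and 5.84 on light arrays, against 6.27 and 6.68 on sham arrays. All light arrays lay below the sham arrays of their batch. The difference was -0.81 ± 0.313 (SE, unadjusted p = 0.0166, limma adjusted p = 0.517), and its second probe set gave -0.41 ± 0.235. Where the ventral arrays were fitted alone the adjusted p was 0.0336, with array weights 0.00615 and without dorsal light array 4 and central light array 2 together 0.0225. No omission of a single array brought it under 0.05. The ventral light arrays also enter the region pattern for which Gpr83 was chosen, so these p-values are not independent of the choice. In the other regions Gpr83 had light minus sham differences of -0.47 ± 0.313 in the central SCN, which became -0.04 without central light array 2, and 0.37 ± 0.313 in the dorsal SCN. Pcsk1n, which encodes proSAAS, had -0.29 ± 0.154 in the ventral SCN (adjusted p = 0.852).

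Of the dorsal genes, Gpr101 and Calcr had light differences of opposite sign. Gpr101 read 8.02 and 7.51 on light arrays, against 8.43 and 8.30 on sham arrays of the dorsal SCN in batch A. The batch B values were 9.95 and 9.02 on light arrays, against 10.47 and 10.05 on sham arrays. All light arrays lay below the sham arrays of their batch, with a difference of -0.69 ± 0.309 (SE, unadjusted p = 0.0357, adjusted p = 0.483), which was -0.41 without dorsal light array 4. Calcr read 7.34 and 6.70 on dorsal light arrays, against 6.38 and 6.17 on dorsal sham arrays in batch A. In batch B it read 9.26 and 9.12 on light arrays, against 8.43 and 8.77 on sham arrays. Here every light array lay above the sham arrays, with a difference of 0.67 ± 0.265 (unadjusted p = 0.0195, adjusted p = 0.449). The third dorsal gene, Qrfpr, had -0.47 ± 0.405, with overlapping arrays.

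Markers of neighbouring neurons also varied among the dorsal arrays. Oxt read 5.40 and 8.83 on dorsal light arrays, against 8.98 and 6.51 on dorsal sham arrays of batch A. In batch B it read 5.38 and 5.97 on light arrays, against 8.95 and 9.60 on sham arrays. The mean level of the 10 neighbour genes lay between 4.99 and 5.60 on light arrays, against 5.44 and 5.69 on sham arrays of batch A, and between 5.61 and 6.20 on light arrays, against 6.40 and 6.56 on sham arrays of batch B. The light differences of Oxt, -2.11 (adjusted p = 0.312), and of Trh, the thyrotropin-releasing hormone precursor, -1.51 (adjusted p = 0.142), did not pass the test. They were the lowest of the 10. Sst (0.55), Crh (0.20), Ghrh (0.16), Gal (0.02) and Pomc (0.002) had dorsal light differences above 0. The median over the 10 genes was -0.10, against -0.03 over all tested genes. The part of neighbouring neurons in the dorsal light differences of Gpr101, Calcr and Ntsr1 was not tested.

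**Figure D3:**
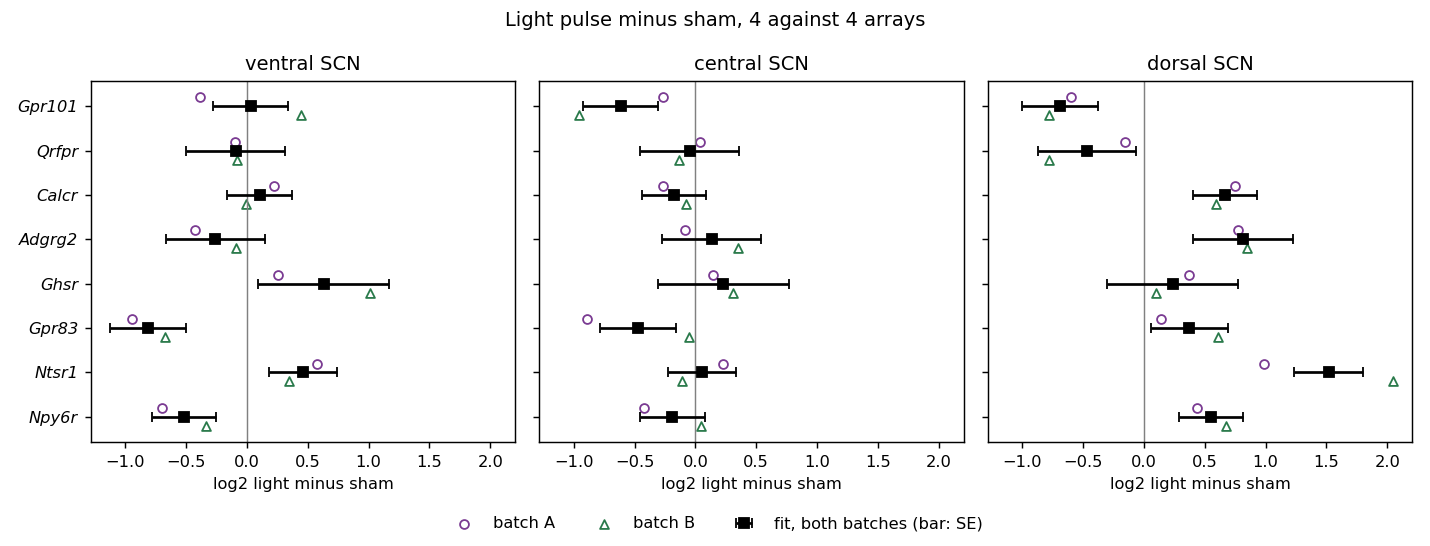
Log2 light minus sham (x axis) of the 8 receptor genes (rows) in the ventral, central and dorsal SCN, from 4 light against 4 sham arrays each. Squares are the fit on both batches with its standard error, circles batch A alone and triangles batch B alone. Ntsr1 in the dorsal SCN, at 1.52, lies farthest from 0, and Gpr83 in the ventral SCN, at -0.81, farthest on the lower side.

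In the ventral SCN Npy6r read 4.80 and 4.89 on light arrays, against 5.36 and 5.72 on sham arrays in batch A. The batch B values were 7.63 and 7.67 on light arrays, against 7.76 and 8.22 on sham arrays. Light arrays lay below sham arrays in both batches, but the difference of -0.52 ± 0.264 did not pass (unadjusted p = 0.0642, adjusted p = 0.823), and its second probe set read 0.12 ± 0.263. In the dorsal SCN, where Npy6r is low, the light minus sham difference was 0.55 ± 0.264 (adjusted p = 0.491), and arrays overlapped in both batches. Core genes varied on the same arrays. Grp read 7.94 and 7.81 on dorsal light arrays, against 6.87 and 7.59 on dorsal sham arrays of batch A, and 9.76 and 9.52 on light arrays, against 8.42 and 9.11 on sham arrays of batch B. Its difference was 0.76 (adjusted p = 0.176) and that of Vip 1.07 (adjusted p = 0.448), the highest of the core list. Calb1 had 0.31 and Nts 0.20, while Calb2 (-0.26) and Cck (-0.42) went the other way. The mean level of the 6 core genes ran from 7.15 to 7.68 on light arrays, against 7.19 to 7.20 on sham arrays of batch A, and from 8.72 to 8.95 on light arrays, against 8.23 to 8.77 on sham arrays of batch B. Their part in the dorsal difference of Npy6r was not tested. Ghsr read higher on the ventral light than sham arrays of each batch, at 3.42 and 3.67 on light arrays, against 3.33 and 3.26 on sham arrays of batch A. Batch B gave 6.80 and 5.85 on light arrays, against 5.54 and 5.09 on sham arrays. Its error was large, and 0.63 ± 0.538 (adjusted p = 1) has a 95% interval of -0.48 to 1.75. Adgrg2 had 0.81 ± 0.409 in the dorsal SCN (adjusted p = 0.498), with 5.35 and 4.53 on light arrays, against 4.61 and 3.72 on sham arrays in batch A, and 7.99 and 7.42 on light arrays, against 6.52 and 7.18 on sham arrays in batch B. Its second probe set read -0.02 ± 0.223 there.

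Of the remaining light differences, the farthest from 0 was that of Gpr101 in the central SCN, -0.61 ± 0.309 (adjusted p = 0.647). For Gpr101 the interval was -0.61 to 0.67 in the ventral and -1.25 to 0.03 in the central SCN, and for Calcr it was -0.45 to 0.65 and -0.72 to 0.38. Overlap was also counted, without Ntsr1 because of its choice. In the ventral SCN Ghsr was higher on all light arrays in both batches, as were 5.96% of tested genes. The ventral values of Ghsr in batch A were all below 4. Gpr83 and Npy6r were lower on all ventral light arrays in both batches, as were 7.91% of tested genes. In the central SCN 0 of the 7 genes separated in either direction (2.99% higher and 6.36% lower among tested genes). In the dorsal SCN Calcr was higher (3.31%) and Gpr101 lower (2.63%).

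Whether the light difference itself changed between regions was tested with a moderated F statistic. None of the 7 genes other than Ntsr1 passed (limma, adjusted p = 1 for each), where 1 of 13494 genes, 0.00741%, did. For Qrfpr, below the filter level outside the dorsal SCN, this test cannot decide. Npy6r (unadjusted p = 0.0269) and Gpr83 (unadjusted p = 0.0379) were the genes of the 7 with an unadjusted p under 0.05, as had 2.05% of all tested genes. Both were chosen for differences between regions on these same arrays, so these p-values are not independent of the choice. The ventral minus dorsal difference of the light effect was -1.19 ± 0.442 for Gpr83, -1.07 ± 0.374 for Npy6r.

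Ligands, relatives and signalling partners of the 8 receptors were looked at from listed genes. Of 12 ligand and ligand-processing genes, 6 were tested, and 0 passed for light in any region (limma, also 0 at an unadjusted p under 0.05). The smallest p values were those of Pcsk1n and of Ghrl, the ghrelin precursor, at -0.17 in the dorsal SCN (adjusted p = 0.736). Npy, the neuropeptide Y precursor, had a ventral minus dorsal difference of -0.31 ± 0.204 and Iapp, the amylin precursor, -0.10 ± 0.327. Qrfp, Calca and Fam237a were not analysed here.

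Among 13 tested relatives of the 8 receptors, 0 passed for light in any region. At an unadjusted p under 0.05 they numbered 1, 2 and 3 in the ventral, central and dorsal SCN, against 6.56, 8.06 and 10.1% of all tested genes. The medians were 0.06, -0.03 and -0.04 on the log2 scale, against -0.03, -0.08 and -0.03 over all tested genes. Gpr39, a zinc-sensing receptor of the ghrelin receptor family, had -0.82 (adjusted p = 0.432) and Npy5r, the Y5 receptor, 0.84 (adjusted p = 0.446) in the dorsal SCN. By region, Npy2r, the Y2 receptor, was like the dorsal genes, with a ventral minus dorsal difference of -1.86 ± 0.31 and a central minus dorsal difference of -1.62 ± 0.31. Npy1r, the Y1 receptor, had 0.45 ± 0.302 and 1.03 ± 0.302, and Npy5r 0.38 ± 0.232 and 1.31 ± 0.232, both highest in the central SCN. Adgrg6, another adhesion receptor, was higher in the ventral than in the dorsal SCN by 0.74 ± 0.287.

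Of 31 tested partner and G protein signalling genes, 0 passed for light in any region, and the medians were -0.09, -0.20 and -0.07. In the ventral, central and dorsal SCN 2, 1 and 3 of them had an unadjusted p under 0.05 (6.56, 8.06 and 10.1% of all tested genes). Grk3, a receptor kinase, had -0.47 (adjusted p = 0.485) in the central SCN, and Adcy6, an adenylyl cyclase, -0.85 (adjusted p = 0.466) in the dorsal SCN. By region, the adenylyl cyclase gene Adcy7 had a ventral minus dorsal difference of -1.27 ± 0.153 and Adcy3 one of 0.71 ± 0.147, while the kinase gene Grk5 had 0.65 ± 0.222.

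Another 21 peptide receptors and 28 brain orphan receptors were tested, and 0 of either list passed for light in any region. An unadjusted p under 0.05 was found for 2, 1 and 6 peptide receptors and for 1, 2 and 3 orphan receptors in the ventral, central and dorsal SCN, beside 6.56, 8.06 and 10.1% of all tested genes. Avpr1a, the V1a vasopressin receptor, had -1.10 (adjusted p = 0.222) and Cckar, a cholecystokinin receptor, 1.08 (adjusted p = 0.373) in the dorsal SCN. The light differences of Avpr1a were similar in the ventral and central SCN, -0.90 and -1.04 (limma, adjusted p = 0.379 and 0.23). Gpr3, a receptor that raises cAMP without a ligand, had 1.24 (adjusted p = 0.123) in the ventral and Gpr153 -0.52 (adjusted p = 0.201) in the dorsal SCN. By region, Cckar had a ventral minus dorsal difference of -1.16 ± 0.26 and a central minus dorsal difference of -1.91 ± 0.26. Sstr2, a somatostatin receptor, had ventral minus dorsal -0.73 ± 0.145 and Oxtr, the oxytocin receptor, 0.74 ± 0.257. Among orphans, Gpr37, which oligodendrocytes make, had 1.29 ± 0.318, Gpr22 -0.77 ± 0.208 and Gprc5b 0.60 ± 0.145.

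Taking the 62 tested receptors of these lists together, 7 had a difference of at least 1 between some pair of regions (11.3%), as had 468 of the 13494 tested genes (3.47%). The 7 were Cckar, Npy2r, Gpr37, Npy5r, Grpr, Gpr37l1 and Npy1r. All 8 described genes had such a difference, as their choice implies.

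**Figure D4:**
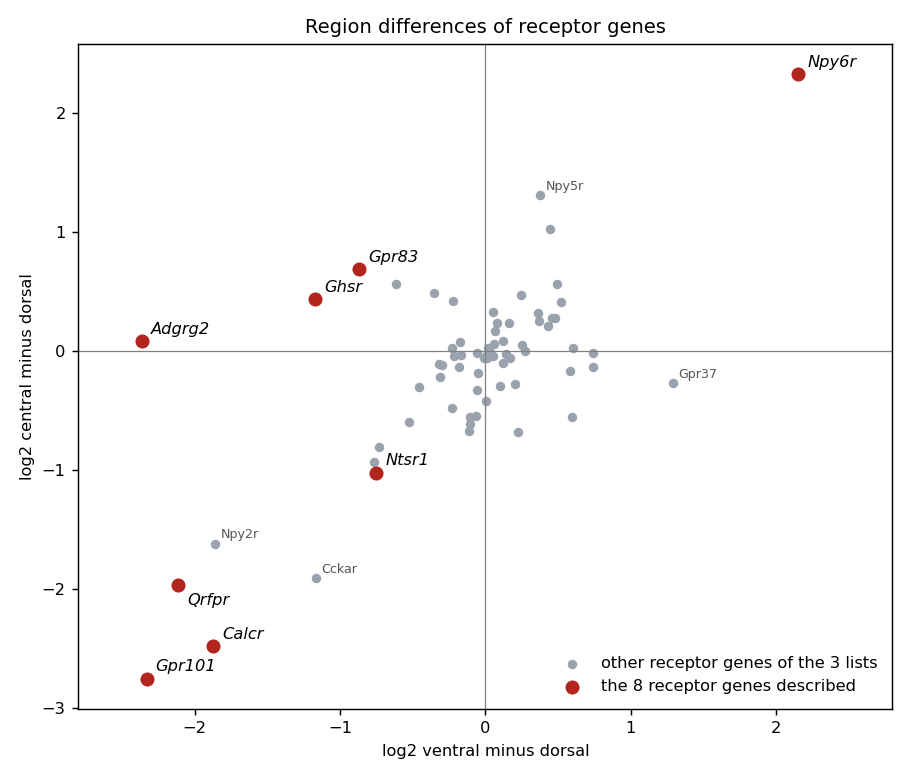
Each point is 1 receptor gene, with its log2 ventral minus dorsal difference on the x axis and its log2 central minus dorsal difference on the y axis, from 8 against 8 arrays. The 8 described genes are red and the 62 other tested receptors grey, with names where the largest difference between regions reached 1.2. Gpr101, Calcr and Qrfpr lie at the lower left with Npy2r and Cckar (Cckar at -1.16 and -1.91). Npy6r lies farthest to the upper right, where Npy5r (0.38 and 1.31) also lies, nearer to 0.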

How the data were processed

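RNA of laser-microdissected ventral, central and dorsal SCN was measured on 24 Affymetrix arrays. The deposited values are log2 expression per probe set, made by the authors. GCRMA 2.32.0, R 3.0.2 and MAS5 are named, without their roles, per the submitters' processing notes. Samples were grouped by the labels' region and treatment.

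Of 45101 probe sets, 34945 carry 1 gene symbol and were used, and 932 with several symbols and 64 controls were left out. Of the symbols, 34741 matched the RefSeq table and 0 changed. The lead probe set of each of 18193 genes has the highest mean over the arrays. The 13494 genes above a log2 value of 4 on at least 4 arrays were tested, and 4699 were not.

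Means of the 6 groups and the batch were fitted with limma 3.58.1 in R 4.3.3 (17 residual and 4.7 prior degrees of freedom), with Benjamini-Hochberg adjustment over the 13494 genes and a threshold of 0.05. The code was tested on simulated data. Precision is limited by the 4 arrays per group.

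The genes, lists and alternatives were chosen with earlier results of these data known. Named besides the 8 genes are the 3 genes most like each, and from each list the genes with the smallest light p and those with the largest ventral minus dorsal differences. Alternatives changed the batch term, scaling, filter, probe set, weights and arrays used.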

Additional observations from a re-analysis of the deposited data

Results flagged for a closer look

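In each of the 48 groups of 4 arrays (a gene in 1 treatment and region, as deviations from the mean of its batch), the distance of the lowest or highest array from its nearest neighbour was divided by the range and set against Dixon's 95% critical value. Chance passes about 1 in 20 such groups, and 2 of the 48 passed.

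Gpr83 on central light array 2 lay at -0.703 from its batch mean, while the other central light arrays lay between 0.872 and 0.975, a gap of 0.938 of the range. Its log2 value there was 4.31, and this is the array with the lowest correlation in batch A.

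Ntsr1 on ventral sham array 4 lay at -0.668 from its batch mean, while the other ventral sham arrays lay between -0.331 and -0.268, a gap of 0.842 of the range. Its log2 value there was 3.25, below the filter level of 4.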

How the results depend on the processing

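The counts of genes called for light, in the order ventral, central, dorsal SCN and difference between regions, were 97, 52, 24 and 1. They were 0 throughout without a batch term, 576, 204, 353 and 2 with array weights, 10, 8, 2 and 0 in batch A alone, 7, 5, 0 and 0 in batch B alone, and 307, 128, 54 and 2 without the 2 arrays that stood apart. With each region fitted alone they were 196, 18 and 0. Quantile scaling gave 103 in the central SCN and 2 for the difference between regions, which was 0 with median centring and with all probe sets tested. Leaving out 1 array gave 47 to 207, 24 to 164, 12 to 41 and 0 to 2. The first 3 were highest without dorsal light array 4 and lowest without ventral light array 2, central sham array 2 and dorsal sham array 1. Settings with a count of 0 had 1 to 1276 genes at an unadjusted p under 0.05 (limma).

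The labels give no pairing. Deviations of same-numbered light and sham arrays of a region correlated at -0.191 to 0.341, over 0.1 in 6 of 12 pairs, and 11 of 24 arrays were closest to their own number. With the replicate block the counts were 124, 98, 40 and 0. Same-numbered arrays of 1 treatment in different regions deviated together more often, over 0.1 in 17 of 24 pairs (median 0.31), against 1 of 24 pairs of other numbers of a batch (median -0.309). Treatment and number as a random block, chosen after seeing this (correlation 0.257), gave 87, 60, 23 and 2, and 0 light calls among the 7 genes other than Ntsr1.

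Some light differences changed sign, among them Adgrg2 in the dorsal SCN, Npy6r in the ventral SCN and Qrfpr in the dorsal SCN (0.812, -0.516 and -0.468 in the fit reported). With the other probe set they were 0.116 and 0.021 for Npy6r in the ventral and central SCN, and 0.132, -0.048 and -0.018 for Adgrg2 in the ventral, central and dorsal SCN. Array weights gave 0.217 for Qrfpr in the dorsal SCN. Batch A alone gave -0.382 for Gpr101 (ventral), 0.04 for Qrfpr (central) and -0.087 for Adgrg2 (central). Batch B alone gave -0.012 for Calcr (ventral), -0.113 for Ntsr1 (central) and 0.049 for Npy6r (central). Leaving out 1 array gave ranges across 0 of -0.068 to 0.467 for Adgrg2 (central), -0.576 to 0.087 for Adgrg2 (ventral), -0.095 to 0.345 for Calcr (ventral), -0.031 to 0.538 for Ghsr (central), -0.269 to 0.723 for Ghsr (dorsal), -0.133 to 0.355 for Gpr101 (ventral), -0.097 to 0.147 for Ntsr1 (central), -0.165 to 0.086 for Qrfpr (central) and -0.262 to 0.134 for Qrfpr (ventral). The Ntsr1 difference in the dorsal SCN ran from 1.06 to 1.73. The causes were not tested. The stricter filter left no value for Qrfpr and Ntsr1.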
